A study of Arabidopsis thaliana with 18 samples.

Results

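The WRKY transcription factor family of Arabidopsis thaliana was followed across 2 ecotypes and 3 temperature conditions. The family was taken as 50 loci listed by name. A locus was kept when its transcript level reached 1 FPKM (fragments per kilobase of transcript, scaled to library size) in at least 1 of the 6 groups. The filter kept 46 of the 50 loci, among 19639 of the 33557 genes of the deposited table. All 50 listed loci carried a WRKY name in the TAIR10.1 annotation, which names 72 WRKY genes in all. RNA came from the entire aerial part of a Swedish (SW) and an Italian (IT) ecotype, both natural accessions of the species. The groups were SW plants kept warm, after 1 week of cold and after 2 weeks of cold, and IT plants in the same 3 conditions. All plants had grown on soil at 22 °C for 18 days with 12 h of light a day, and all were sampled at ZT4, which is 4 h after lights on. Cold plants then spent 1 or 2 weeks at 4 °C, also in 12 h days. Light intensity, in µmol m-2 s-1, lay between 100 and 120 while the plants grew in the warm, and near 35 in the cold chamber. Cold, dimmer light and greater age therefore cannot be told apart in any comparison of cold with warm plants. No transgene or mutation is named in the labels.

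WRKY proteins are plant transcription factors that bind DNA through the WRKY domain, a short conserved stretch followed by a zinc finger. Their usual target is the W box, a motif found before many defence genes and before WRKY genes themselves, so that the family forms a network of mutual activation and repression. The proteins fall into group I, with a pair of WRKY domains, group II, with a single domain and the subgroups IIa to IIe, and group III, with a single domain and another kind of zinc finger. In leaves the family is best known for immunity, salicylic acid signalling and senescence. Many of its genes respond within minutes to pathogens, wounding or reactive oxygen species.

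Each group was made of 3 libraries, but the table held 1 value per gene and group. The differences below therefore have no replicate error and no p-value, and could not be held against the spread between plants. A difference is given as the log2 ratio of FPKM + 1, and 2-fold, a log2 ratio of 1 or -1, was the size from which genes were counted. The added 1 draws ratios of low values toward 0. The number of fragments behind each value is unknown. The FPKM values summed to between 823963 and about 1034040 per group, and the median of the kept genes lay between 10.4 and 10.9 FPKM. The light-harvesting genes LHCB3 and LHCA1, markers of green tissue, stood at 2534 FPKM or more in every group, whereas the Rubisco gene RBCS1A was listed at 0 in all 6 groups. Of 6 root markers 5 stayed below 1 FPKM in every group, among them the root hair genes EXPA7 and RHD6, which were listed at 0 in 4 and 5 groups. Their sum, nearly all of it from SCR, was at most 11.5 FPKM in the SW groups and lay between 12.1 and 16.4 FPKM in the IT groups. In whole shoots, fewer cells of a type and less RNA per cell cannot be told apart.

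The summed level of the 46 WRKY genes was lowest in SW plants after 2 weeks of cold. In SW the sum was 603 FPKM in the warm, 473 after 1 week and 319 after 2 weeks. In IT it was 805 FPKM in the warm, 478 after 1 week and 784 after 2 weeks. The low sum of SW at 2 weeks was therefore not shared by IT plants after the same time in the cold. The median member stood at 6.83, 7.84 and 3.14 FPKM in SW in the same order of conditions, and at 7.16, 7.88 and 12.1 FPKM in IT. Of the 46 genes, 20 had their lowest value in SW at 2 weeks, where 15.8% of all kept genes had theirs. Likewise 20 had their highest value in IT at 2 weeks, against 13.7% of all kept genes. WRKY70 alone made up 25.8% of the sum in warm SW plants and 29.2% in warm IT plants, but 4.52% and 6.26% in SW and 9.44% and 14.0% in IT after 1 and 2 weeks of cold. Without WRKY70 the sum was 447, 452 and 299 FPKM in SW and 570.3, 433 and 674 FPKM in IT, again from warm to 2 weeks.

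**Figure D1:**
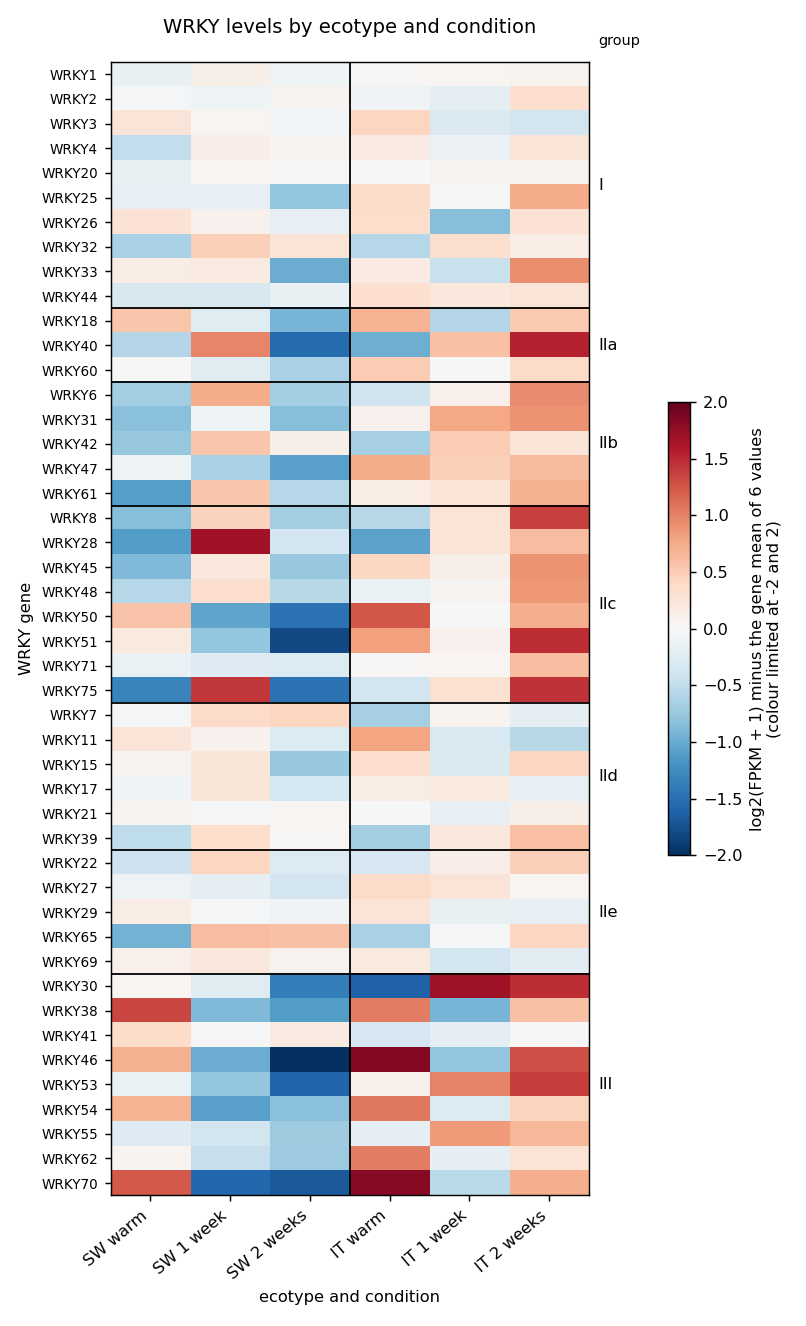
Level of each of the 46 WRKY genes (rows, by family group) in the 6 groups of plants (columns), as log2(FPKM + 1) minus the mean of that gene over the 6 values, with red above and blue below the mean and the colour limited at 2. The SW 2-week column is blue for most rows of groups IIa, IIb, IIc and III, and the IT 2-week column is red for most of them.

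The members differed widely in level and in how much they varied. FPKM is scaled to transcript length, which allows a rough ranking of different genes. How completely the fragments of each gene were counted is unknown. WRKY70 (AT3G56400, chromosome 3, 20908711 to 20910623 in TAIR10.1), a regulator between salicylic acid and jasmonate signalling, had the highest mean over the 6 groups, 97.9 FPKM. WRKY33 followed with 36.6 FPKM, WRKY54 with 34.6, WRKY25 with 27.97 and WRKY46 with 26.3. At the low end, 13 of the 46 stayed below 5 FPKM in every group. Over the 6 groups 14 members (30.4%) remained within 2-fold, against 57.7% of all kept genes, and 12 members (26.1%) had a log2 range of at least 2, against 11%. The steadiest members of at least 5 FPKM on average were WRKY20, WRKY1, WRKY21, WRKY2 and WRKY17, with log2 ranges between 0.23 and 0.59. WRKY20, of group I, lay between 18.5 and 21.9 FPKM in the 6 groups, and WRKY1, the zinc-dependent activator ZAP1, between 22.8 and 27.5 FPKM.

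After 1 week of cold WRKY70, WRKY54, WRKY46 and WRKY38, all of group III, were lower than in the warm in both ecotypes. Of the 9 group III genes 0 were higher and 4 lower by 2-fold or more in SW, and 2 were higher and 5 lower in IT. Over all kept members of the list, in SW 10 of 46 WRKY genes were 2-fold or more higher and 5 lower than in the warm. That is a share of 32.6% past 2-fold, against 14% of all genes. In IT 5 of 46 were higher and 9 lower, a share of 30.4%, against 17.9% of all genes. Directions taken apart, 7.81% of all genes were higher and 6.2% lower in SW, and 10% higher and 7.91% lower in IT. All 5 of the genes lower in SW, namely WRKY70, WRKY38, WRKY54, WRKY46 and WRKY50, were also among the 9 lower in IT, which is 100% of the SW list and 55.6% of the IT list. Over all genes the overlap made up 61.5% of the lower genes of SW and 48% of those of IT, so the IT share is near the general one. The median log2 ratio of the 46 was 0.0033 in SW and -0.12 in IT, against 0.027 and -0.0023 over all genes. The SW median was below 0 under each of the 3 other scalings tried, at -0.27 when groups were scaled to reference genes, which put the median of all genes at -0.27 in SW and -0.24 in IT.

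WRKY70 gave the largest of these differences in SW. It stood at 21.4 FPKM after 1 week against 156 FPKM in the warm in SW, a log2 ratio of -2.81. In IT the same gene stood at 45.1 against 235 FPKM, a log2 ratio of -2.35. WRKY54 (AT2G40750), its closest relative, which acts with it in salicylic acid responses and leaf senescence, was at 13.6 against 48.9 FPKM in SW and at 24.6 against 63.3 FPKM in IT. WRKY46, which works with WRKY70 and WRKY53 in basal resistance and also in osmotic stress, was at 8.16 against 28.9 FPKM in SW and at 9.64 against 64.1 FPKM in IT. That made WRKY46 the member with the lowest ratio in IT (-2.61). WRKY38, which together with WRKY62 holds back basal defence, was at 1.53 against 10.8 FPKM in SW and at 1.47 against 8.49 FPKM in IT. WRKY62 itself was low throughout, at 0.530 against 1.21 FPKM in SW and at 0.875 against 3.31 FPKM in IT. WRKY50, which with WRKY51 mediates the repression of jasmonate signalling by salicylic acid, had log2 ratios of -1.63 in SW and -1.25 in IT. WRKY51 lay just within 2-fold, at -0.98 in SW and -0.73 in IT.

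Other members were higher after 1 week. WRKY40 (AT1G80840), a repressor of basal defence and of abscisic acid responses, stood at 17.4 against 5.23 FPKM in SW and at 13.0 against 3.77 FPKM in IT, with log2 ratios of 1.56 and 1.55. Its near relatives WRKY18 and WRKY60, which act with it, did not go the same way: WRKY18 had log2 ratios of -0.79 in SW and -1.27 in IT, and WRKY60 of -0.25 and -0.50. WRKY28, an activator of the salicylic acid synthesis gene ICS1, was at 13.6 against 1.09 FPKM in SW, the largest ratio there (2.80), and at 4.40 against 1.15 FPKM in IT (1.33). WRKY75, which acts in phosphate starvation and senescence, was at 17.3 against 1.75 FPKM in SW and at 7.51 against 4.31 FPKM in IT, past 2-fold in SW and not in IT (2.73 and 0.68). Other genes past 2-fold in SW alone were WRKY61 (1.66), WRKY65 (1.56), the senescence and phosphate regulator WRKY6 (1.43), WRKY8 (1.31), the group I gene WRKY32 (1.12) and WRKY45 (1.10). Their IT ratios were 0.10, 0.60, 0.49, 0.83, 0.90 and -0.29. Of the 10 genes higher in SW, 3 were among the 5 higher in IT, which is 30% and 60% of the lists, against 54.7% and 42.8% over all genes. Those 3 were WRKY28, WRKY40 and WRKY42, the last a regulator of phosphate transport genes at 3.66 against 0.870 FPKM in SW and 3.49 against 0.988 FPKM in IT.

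WRKY30 and WRKY53, both of group III, separated the ecotypes at 1 week. WRKY30 (AT5G24110), a gene induced by reactive oxygen species, was at 5.10 FPKM after 1 week against 6.38 FPKM in the warm in SW, but at 22.3 against 1.35 FPKM in IT. The IT log2 ratio of 3.31 was the largest of any member in that comparison, while the SW ratio was -0.27. WRKY53 (AT4G23810), a promoter of leaf senescence, was at 5.19 against 8.58 FPKM in SW and at 20.0 against 10.4 FPKM in IT, log2 ratios of -0.63 and 0.89. WRKY55, the neighbour of WRKY54 on chromosome 2 and another senescence regulator, was at 0.753 against 0.885 FPKM in SW and at 3.05 against 0.989 FPKM in IT. The genes WRKY55 (16997078 to 16999499) and WRKY54 (17000419 to 17002528) face each other with 919 bases between them, and they did not go the same way in IT, with log2 ratios of 1.03 and -1.33. Among other genes lower in IT at 1 week, WRKY26, which acts with WRKY25 and WRKY33 in heat tolerance, was at 7.41 against 18.6 FPKM, and WRKY11, a negative regulator of basal resistance, at 14.9 against 33.1 FPKM. In SW these stood at 15.2 against 17.7 FPKM and at 20.0 against 22.7 FPKM, both within 2-fold.

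**Figure D2:**
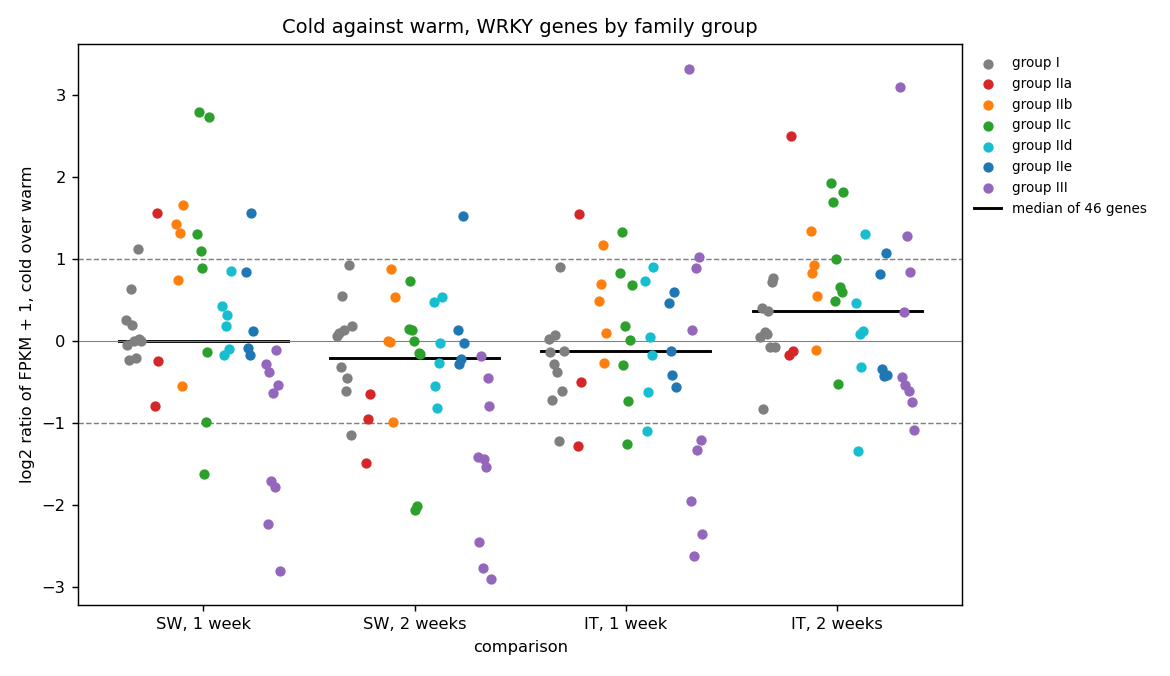
Log2 ratio of FPKM + 1, cold over warm, for each of the 46 WRKY genes (points, coloured by family group) in 4 comparisons along the horizontal axis, with the median of the 46 as a bar and dashed lines at 2-fold. The lowest points in SW at both times are group III genes, and the IT 2-week median (0.36) is the highest of the 4.

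After 2 weeks the directions of the ecotypes had parted. In SW 1 of 46 WRKY genes was higher and 10 were lower by 2-fold or more than in the warm, against 6.54% and 7.47% of all genes. In IT 10 were higher and 2 lower, against 7.03% and 6.43% of all genes. Under scaling to reference genes the IT counts were 6 higher and 4 lower, and the SW counts 1 higher and 13 lower. With 0.1 added in place of 1, the SW counts were 4 higher and 14 lower. The shares past 2-fold were 23.9% in SW and 26.1% in IT, against 14% and 13.5% of all genes. The median log2 ratio of the 46 was -0.20 in SW and 0.36 in IT, against 0.012 and 0.042 over all genes. Scaling to reference genes gave -0.44 and 0.050 for the WRKY genes, with -0.29 and -0.26 for all genes.

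The 10 lower genes of SW came from groups III, IIc, IIa and I. WRKY70 stood at 20.0 FPKM against 156 FPKM in the warm (-2.90), WRKY46 at 3.40 against 28.9 FPKM (-2.77) and WRKY38 at 1.16 against 10.8 FPKM (-2.45). These were the members with the lowest ratios, and all are group III genes of salicylic acid defence. WRKY50 (-2.06), WRKY51 (-2.01), WRKY54 (-1.53), WRKY18 (-1.49), WRKY53 (-1.44), WRKY30 (-1.41) and WRKY33 (-1.15) completed the list. The single gene past 2-fold on the higher side was WRKY65 of group IIe, at 7.35 against 1.90 FPKM (1.53). In IT the same gene was at 6.51 against 2.57 FPKM (1.07).

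In IT the genes higher at 2 weeks included regulators that were lower in SW. WRKY30 stood at 1.77 FPKM against 6.38 FPKM in the warm in SW and at 19.1 against 1.35 FPKM in IT, log2 ratios of -1.41 and 3.09. WRKY53 stood at 2.52 against 8.58 FPKM in SW and at 26.5 against 10.4 FPKM in IT, log2 ratios of -1.44 and 1.28. Opposite 2-fold differences of this kind, lower in SW and higher in IT, were found for 2 of 46 members and 0.125% of all genes. WRKY40 was at 2.23 against 5.23 FPKM in SW, just within 2-fold at -0.95, and at 26.1 against 3.77 FPKM in IT (2.51). WRKY8, a gene of salt and virus responses, was at 2.45 against 2.12 FPKM in SW and at 13.5 against 2.83 FPKM in IT (1.92). WRKY75 was at 1.46 against 1.75 FPKM in SW and at 17.6 against 4.31 FPKM in IT (1.81). For WRKY28 the IT log2 ratio was 1.69, for WRKY6 1.34 and for WRKY39, which is known from heat responses, 1.30. The SW ratios of these were 0.74, 0.01 and 0.53. WRKY48, a repressor of basal resistance, was at 1.23 against 1.22 FPKM in SW and at 4.999 against 1.99 FPKM in IT, just past 2-fold. The genes lower in IT were WRKY11, at 12.4 against 33.1 FPKM (-1.34), and WRKY70, at 110.1 against 235 FPKM (-1.09). WRKY70 was thus past 2-fold on the lower side in both ecotypes and at both times.

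**Figure D3:**
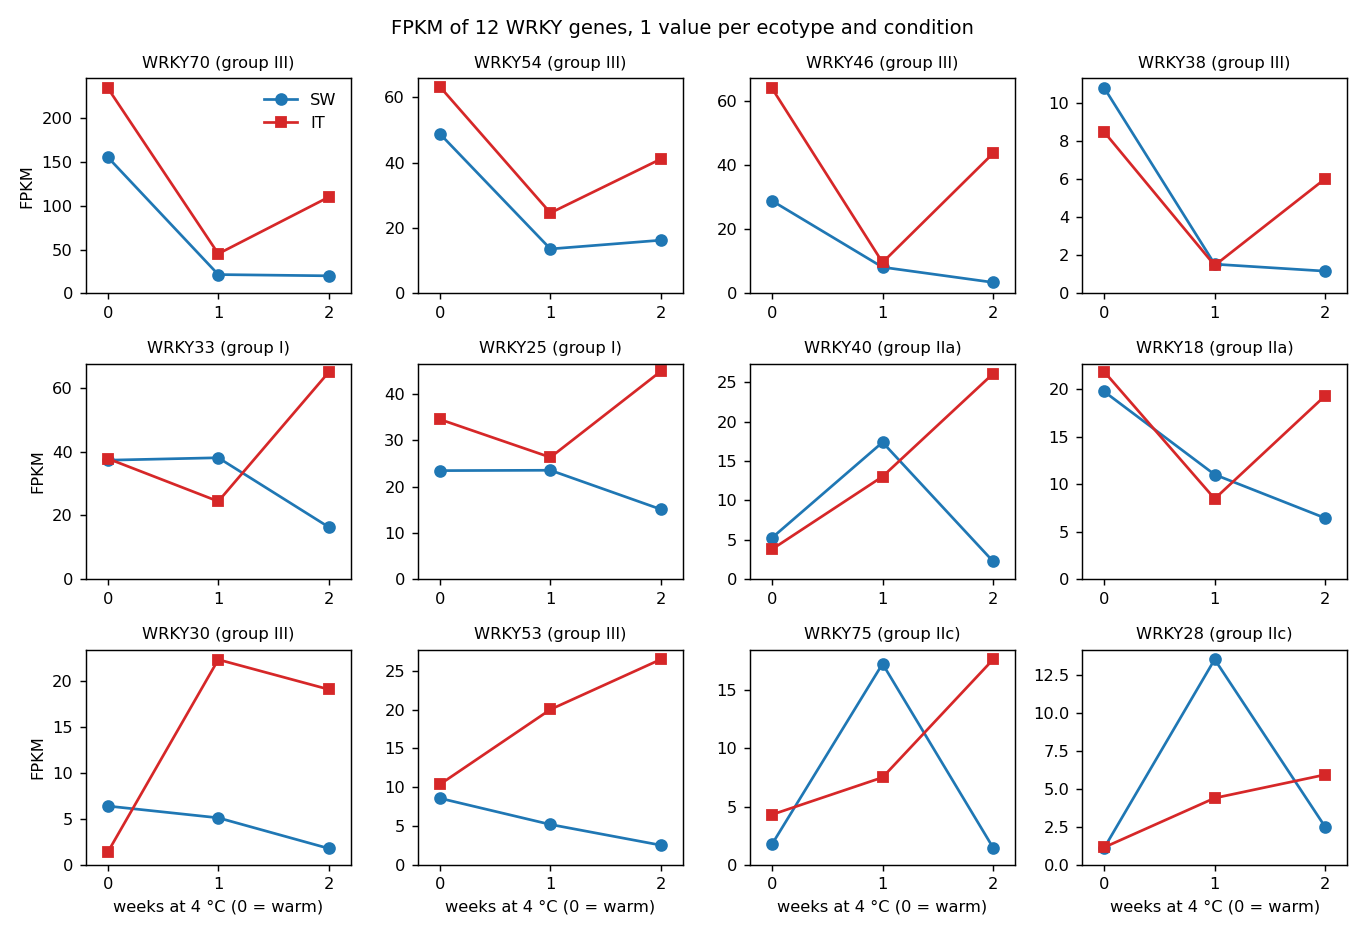
FPKM of 12 WRKY genes (1 panel each) against weeks at 4 °C, with SW as blue circles and IT as red squares, 1 value per point and no error bars, since no replicate values were used. WRKY70 in IT stands at 235, 45.1 and 110.1 FPKM and in SW at 156, 21.4 and 20.0 FPKM, and WRKY40 and WRKY75 peak at 1 week in SW but at 2 weeks in IT.

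The second week of cold, taken by itself, divided the ecotypes most clearly. Between 1 and 2 weeks 0 WRKY genes were higher and 11 were lower by 2-fold or more in SW, a share past 2-fold of 23.9% against 3.29% of all genes. In IT 9 were higher and 0 lower, a share of 19.6% against 3.29% of all genes. By direction, 2.88% of all genes were lower in SW and 1.81% higher in IT, while 0.408% were higher in SW and 1.48% lower in IT. Of the 46 genes 31 had a ratio below 0 in SW and above 0 in IT, 1 had the reverse, 9 were below 0 in both and 5 above 0 in both. Among all genes 23.1% were below 0 in SW and above 0 in IT and 21.2% had the reverse. A further 27.6% of all genes were below 0 in both and 28.1% above 0 in both. The median log2 ratio of the 46 was -0.38 in SW and 0.39 in IT, against -0.0034 and 0.0094 over all genes. These directions held under each of the 3 other scalings tried, with medians of -0.40 to -0.32 in SW and 0.32 to 0.41 in IT.

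WRKY33 (AT2G38470, chromosome 2, 16108235 to 16110766), which switches on the synthesis of the antimicrobial compound camalexin, was level between the ecotypes in the warm. It stood at 37.4, 38.2 and 16.3 FPKM in SW from warm to 2 weeks, and at 37.9, 24.4 and 65.2 FPKM in IT. The log2 ratio of 2 weeks to 1 week was -1.18 in SW and 1.38 in IT. Its relative WRKY25 stood at 23.4, 23.5 and 15.1 FPKM in SW and at 34.5, 26.3 and 45.0 FPKM in IT, within 2-fold in the second week (-0.61 and 0.75). The third of these heat tolerance genes, WRKY26, had second-week ratios of -0.24 in SW and 1.14 in IT. WRKY46 was at 3.40 FPKM after 2 weeks against 8.16 FPKM after 1 week in SW, and at 43.8 against 9.64 FPKM in IT. Its IT ratio of 2.07 was the largest of any member in the second week. WRKY51 was at 2.88 against 6.92 FPKM in SW and at 36.9 against 13.4 FPKM in IT. WRKY75 had the lowest SW ratio, -2.89, with 1.13 in IT, and WRKY8 had -1.16 and 1.09. Thus 5 genes, WRKY8, WRKY33, WRKY46, WRKY51 and WRKY75, were past 2-fold in opposite directions. They made up 45.5% of the SW lower list and 55.6% of the IT higher list, against 15.3% and 24.6% of those lists over all genes, and 0.436% of all genes showed that combination.

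Further genes were past 2-fold in the second week in a single ecotype. In SW these were WRKY40 (-2.51), WRKY28 (-2.06), WRKY6 (-1.42), WRKY30 (-1.14), WRKY61 (-1.13) and, exactly at the limit, WRKY15, a growth and salt stress regulator at 11.1 FPKM after 2 weeks against 23.2 FPKM after 1 week. Their IT ratios were 0.95, 0.36, 0.85, -0.22, 0.45 and 0.71. In IT these were WRKY38 (1.51), WRKY70 (1.27), WRKY26 (1.14) and WRKY18 (1.10), with SW ratios of -0.23, -0.10, -0.24 and -0.69. WRKY70, WRKY54 and WRKY38, low after 1 week in both ecotypes, thus stood higher again after 2 weeks in IT, with WRKY54 within 2-fold (0.72), and stayed near their 1-week level in SW.

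**Figure D4:**
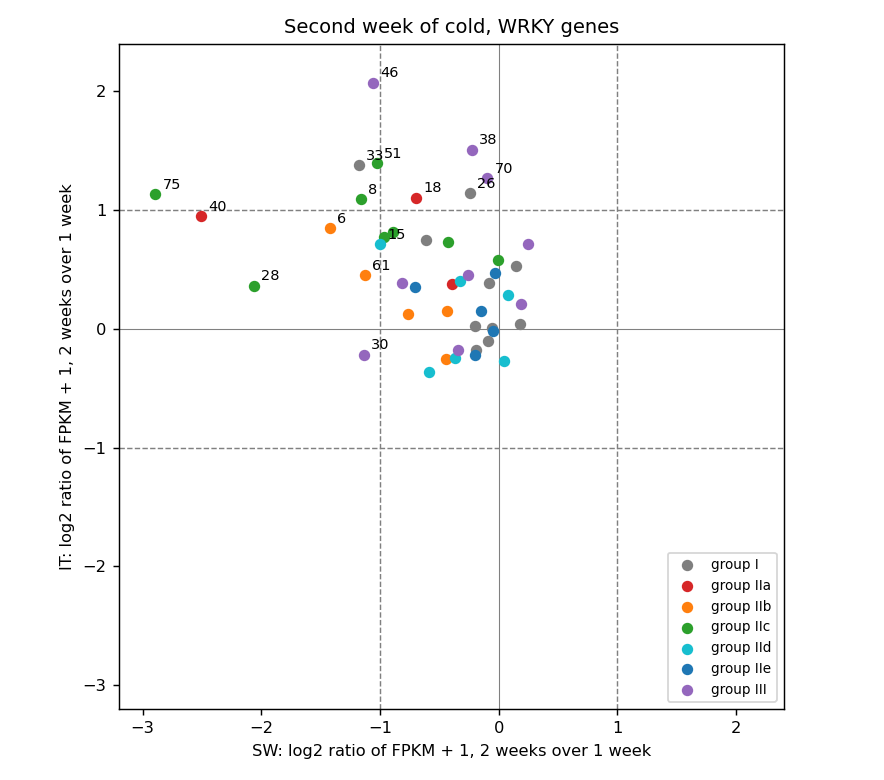
Log2 ratio of FPKM + 1, 2 weeks over 1 week of cold, in SW (horizontal) and in IT (vertical) for the 46 WRKY genes, coloured by family group, with dashed lines at 2-fold and the gene number beside those past it. Most points, 31 of 46, lie to the upper left, lower in SW and higher in IT, and the right and lower 2-fold lines are not reached.

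Set against IT in the same condition, SW plants held lower WRKY levels at 2 weeks. In the warm 1 of 46 genes was higher and 3 were lower in SW by 2-fold or more, a share of 8.7% past 2-fold against 6.9% of all genes, of which 2.68% were higher and 4.22% lower. After 1 week 2 were higher and 6 lower, a share of 17.4% against 8.51%, with 4.57% of all genes higher and 3.95% lower. After 2 weeks 0 were higher and 24 lower, a share of 52.2% against 11.1% of all genes, with 3.92% higher and 7.19% lower. The median log2 ratio of SW to IT was -0.24 in the warm, 0.12 after 1 week and -1.02 after 2 weeks, against 0.022, 0.011 and 0.023 over all genes. Scaling to reference genes gave -0.31, -0.011 and -1.07 for the WRKY genes, so the sign at 1 week turned, and counts of 1 higher and 6 lower in the warm and 1 higher and 6 lower after 1 week. With 0.1 added in place of 1, the counts in the warm were 2 higher and 6 lower. At 2 weeks 0 genes were higher and between 22 and 24 were lower under the 3 other scalings.

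By family group the 2-week difference was uneven. In group III 8 of 9 kept genes were at least 2-fold lower in SW, in IIa 3 of 3, in IIb 4 of 5 and in IIc 6 of 8. In group I it was 2 of 10, in IId 1 of 6 and in IIe 0 of 5. The lowest ratio belonged to WRKY46 (3.40 FPKM in SW against 43.8 in IT, log2 ratio -3.35). WRKY51 (2.88 against 36.9 FPKM, -3.29) and WRKY40 (2.23 against 26.1 FPKM, -3.07) came next. WRKY53 (-2.96), WRKY75 (-2.92), WRKY30 (-2.86), WRKY70 (-2.41) and WRKY50 (-2.21) followed. Among the repressors related to WRKY40, WRKY18 stood at 6.42 FPKM in SW against 19.4 in IT (-1.45) and WRKY60 at 9.16 against 19.6 (-1.02). In group I the genes past 2-fold were WRKY33 (16.3 against 65.2 FPKM, -1.93) and WRKY25 (15.1 against 45.0 FPKM, -1.52), and the remaining 8 had ratios between -0.45 and 0.33.

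**Figure D5:**
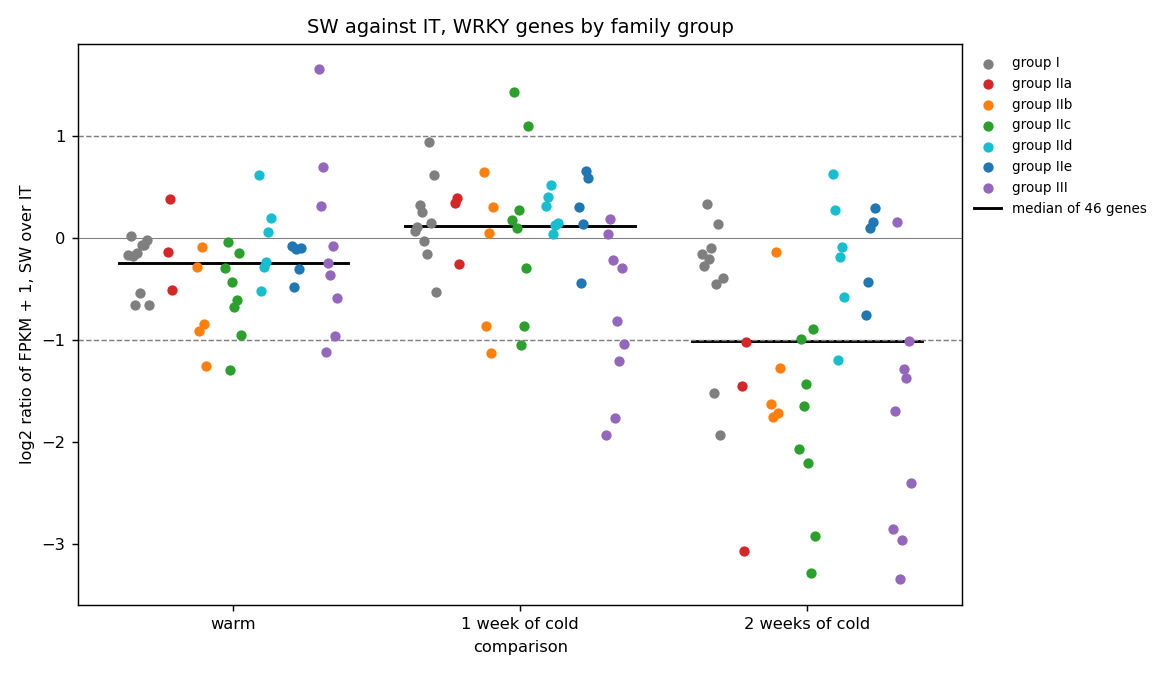
Log2 ratio of FPKM + 1, SW over IT, for each of the 46 WRKY genes (points, coloured by family group) in the warm and after 1 and 2 weeks of cold, with the median of the 46 as a bar and dashed lines at 2-fold. At 2 weeks 24 points lie at or below the lower line and none above the upper one.

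No member was past 2-fold in the same direction in all 3 conditions. Of all genes 1.59% were lower and 1.29% higher in SW throughout, shares too small to read a 0 among 46 as a result. Of the 46, 16 had a ratio below 0 in all 3 (21.7% of all genes did) and 2, WRKY7 and WRKY41, a ratio above 0 in all 3 (24.1% of all genes did). WRKY46 and WRKY45 were 2-fold lower in SW in the warm, WRKY46 at 28.9 FPKM against 64.1 in IT (-1.12) and WRKY45, a regulator of phosphate uptake and senescence, at 1.49 against 5.11 (-1.29). After 1 week the same genes stood at 8.16 against 9.64 FPKM and at 4.34 against 4.00 FPKM, within 2-fold. WRKY30 crossed over between conditions. In SW against IT it stood at 6.38 against 1.35 FPKM in the warm (1.65), at 5.10 against 22.3 FPKM after 1 week (-1.93) and at 1.77 against 19.1 FPKM after 2 weeks (-2.86). WRKY28 and WRKY75 were the genes higher in SW after 1 week, WRKY28 at 13.6 against 4.40 FPKM (1.43) and WRKY75 at 17.3 against 7.51 FPKM (1.10). The genes lower in SW after 1 week included, besides WRKY30, WRKY53 (5.19 against 20.0 FPKM, -1.76), WRKY50 (2.74 against 6.72 FPKM, -1.05) and WRKY70 (21.4 against 45.1 FPKM, -1.04). WRKY47, known from the response to boron shortage, completed that list with WRKY55, at 2.19 against 5.97 FPKM (-1.13). It stood at 3.65 against 7.36 FPKM in the warm (-0.85) and at 1.35 against 6.74 FPKM after 2 weeks (-1.72).

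The difference of the log2 cold responses, SW minus IT, gathered these patterns into 1 value per gene. At 1 week it was 1 or more for 5 of 46 genes and -1 or less for 3, a share of 17.4% against 7.32% of all genes, of which 4.89% were at or above 1 and 2.43% at or below -1. With 0.1 added in place of 1, the members counted were 9 and 4. At 2 weeks it was 1 or more for 0 genes and -1 or less for 15, a share of 32.6% against 7.28% of all genes, of which 3.07% were at or above 1 and 4.21% at or below -1. The genes with the lowest values at 2 weeks were WRKY30 (-4.51), WRKY40 (-3.45), WRKY53 (-2.72), WRKY51 (-2.67) and WRKY46 (-2.23). At 1 week WRKY75 (2.05) and WRKY61 (1.56) lay highest and WRKY30 (-3.59) lowest. These values draw on the same warm and cold groups as the comparisons above and are no separate evidence.

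Groups I, IId and IIe held most of the members that differed little. In group I the pathogen resistance genes WRKY3 and WRKY4 lay between 11.6 and 21.3 FPKM and between 7.15 and 12.8 FPKM over the 6 groups. WRKY2, which acts in the first divisions of the zygote, lay between 6.26 and 9.49 FPKM. WRKY44 (TTG2), a regulator of trichomes and the seed coat, was at 1.55, 1.55 and 1.89 FPKM in SW from warm to 2 weeks and at 3.01, 2.69 and 2.80 FPKM in IT. WRKY32 stood out in the group by being higher in the cold in both ecotypes, at 8.64, 19.9 and 17.3 FPKM in SW and at 9.12, 17.9 and 15.7 FPKM in IT. Its log2 ratios were 1.12 and 0.92 in SW and 0.90 and 0.72 in IT, so it passed 2-fold in 1 of 4 comparisons. In group IId WRKY7 lay between 5.99 and 13.9 FPKM, WRKY17 between 5.31 and 8.50 FPKM and WRKY21 between 11.3 and 14.0 FPKM. Of these WRKY7 did not remain within 2-fold over the 6 groups (log2 range 1.09). Nor did WRKY11 (1.34), WRKY15 (1.19) and WRKY39 (1.30), also of group IId. WRKY39 was at 9.66, 18.3 and 14.4 FPKM in SW and at 8.33, 16.5 and 22.0 FPKM in IT. In group IIe the flagellin response genes WRKY22 and WRKY29 stayed between 1.54 and 3.72 FPKM and between 2.30 and 3.43 FPKM, WRKY27 between 0.939 and 2.30 FPKM and WRKY69 between 2.85 and 4.81 FPKM. WRKY65 differed from these, at 1.90, 7.53 and 7.35 FPKM in SW and at 2.57, 4.42 and 6.51 FPKM in IT.

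Among the low members of group IIb, WRKY31 was at 0.151, 0.935 and 0.141 FPKM in SW and at 1.17, 2.53 and 2.85 FPKM in IT from warm to 2 weeks. WRKY61 was at 0.109, 2.51 and 0.605 FPKM in SW and at 1.65, 1.84 and 2.89 FPKM in IT. Both were lower in SW than in IT in the warm, where only WRKY61 was past 2-fold (-1.26, against -0.92). WRKY41 and WRKY71 reached 1.08 and 1.93 FPKM at most. These were the members just inside the filter, and the 4 loci outside it were WRKY14, WRKY35, WRKY63 and WRKY72 with at most 0.662, 0.392, 0.526 and 0.167 FPKM. WRKY63, an abscisic acid response gene, was listed at 0 in SW after 1 and 2 weeks. Of the 22 WRKY genes of the annotation outside the list of 50, 10 reached 1 FPKM. After 2 weeks 1 of these 10 was at least 2-fold lower in SW than in IT and 0 were higher, with a median log2 ratio of -0.25.

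The 250 bases before the annotated start of each member were read from the TAIR10.1 RefSeq genome and searched for the W box, spelled TTGACC or TTGACT, on both strands. These are sequences of the Columbia reference, not of SW or IT plants. Of the 46 members 17 (37%) held at least 1 W box, against 28.2% of the 18803 protein-coding genes kept, and 10 (21.7%) held at least 2, against 6.09%. The share with at least 1 was 37.5% of the 24 members lower in SW at 2 weeks and 36.4% of the other 22. The core of the cold-responsive CBF binding site, spelled ACCGAC or GCCGAC, was found before 1 of 46 members (2.17%), WRKY1, against 7.98% of the genes kept. No W box overlapped such a core before any member. The windows of WRKY30, WRKY33, WRKY53 and WRKY75 are printed 5′ to 3′ on the strand of the gene, with W boxes in capitals, since their genes gave opposite 2-fold differences in the 2 ecotypes and hold a match. All read up to the base before the annotated start. The window of WRKY30 lies at chr5:8154711-8154960 (minus strand), that of WRKY33 at chr2:16107985-16108234 (plus strand), that of WRKY53 at chr4:12393983-12394232 (minus strand) and that of WRKY75 at chr5:4151202-4151451 (minus strand).
WRKY30: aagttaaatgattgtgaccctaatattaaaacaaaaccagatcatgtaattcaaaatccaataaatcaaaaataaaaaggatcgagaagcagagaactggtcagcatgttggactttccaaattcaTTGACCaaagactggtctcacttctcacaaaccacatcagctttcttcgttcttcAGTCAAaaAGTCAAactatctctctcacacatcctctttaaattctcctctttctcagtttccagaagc
WRKY33: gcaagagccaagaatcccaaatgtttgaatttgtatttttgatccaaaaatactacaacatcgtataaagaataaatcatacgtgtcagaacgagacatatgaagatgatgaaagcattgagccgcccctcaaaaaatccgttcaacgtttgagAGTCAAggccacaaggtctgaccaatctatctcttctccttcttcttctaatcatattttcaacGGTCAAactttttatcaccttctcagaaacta
WRKY53: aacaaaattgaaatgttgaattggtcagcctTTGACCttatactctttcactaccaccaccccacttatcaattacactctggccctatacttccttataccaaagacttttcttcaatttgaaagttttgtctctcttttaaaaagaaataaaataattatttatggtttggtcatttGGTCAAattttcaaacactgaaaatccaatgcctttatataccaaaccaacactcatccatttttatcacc
WRKY75: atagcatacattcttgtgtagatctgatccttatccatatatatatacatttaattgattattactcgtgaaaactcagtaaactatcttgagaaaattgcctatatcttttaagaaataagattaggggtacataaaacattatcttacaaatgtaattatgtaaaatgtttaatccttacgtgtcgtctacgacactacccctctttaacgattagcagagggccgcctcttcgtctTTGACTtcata
WRKY30 held 3 matches, of which the pair nearest the start begin 69 and 61 bases before it, WRKY33 and WRKY53 held 2 each, and WRKY75 held 1 that begins 11 bases before the start. The windows of WRKY8, WRKY46 and WRKY51, which gave the same opposite second-week differences, held no match. A match is a string of letters and says nothing of binding, and its absence from this window says nothing of sites farther away.

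Of 10 genes of the MAPK cascade, whose kinases act before WRKY proteins in immune signalling, 0 were 2-fold higher and 1 was lower in SW than in IT after 2 weeks (median log2 ratio -0.28). Across all genes 3.92% were higher and 7.19% lower in that comparison, so this count is near the general share. The gene past 2-fold was MPK11, at 3.33 FPKM in SW against 21.4 in IT (-2.37). MPK3, a kinase that phosphorylates WRKY33, was at 78.4 against 127 FPKM (-0.69) and MPK6 at 24.1 against 30.1 FPKM (-0.31). Of 10 VQ genes, whose short proteins bind WRKY domains, 0 were higher and 2 lower in SW at 2 weeks (median -0.41). The shares of all genes were again 3.92% and 7.19%, and 10 genes are too few to set against them. Those were JAV1, a repressor of jasmonate defence at 5.55 against 16.3 FPKM (-1.40), and AT1G78410, at 5.82 against 85.4 FPKM (-3.66). MKS1 and SIB1, known partners of WRKY33, were within 2-fold at -0.19 and -0.73.

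Genes downstream of WRKY33 were mostly lower in SW than in IT after 2 weeks, as WRKY33 was. Of 9 camalexin and ethylene synthesis genes 0 were higher and 7 lower in SW than in IT after 2 weeks (median -1.70). Across all genes 3.92% were higher and 7.19% lower in that comparison. Between 1 and 2 weeks in SW 0 of the 9 were higher and 6 lower (median -1.51), against 0.408% and 2.88% of all genes. At 1 week the 9 genes did not go with WRKY33, which had log2 ratios to warm of 0.03 in SW and -0.61 in IT. Of the 9, 5 were 2-fold higher than in the warm in SW and 4 in IT, and 0 lower in either. Among all genes 7.81% were higher in SW and 10% in IT. PAD3, the last enzyme of camalexin synthesis, was at 6.39, 100.1 and 9.55 FPKM in SW from warm to 2 weeks and at 5.64, 34.7 and 63.6 FPKM in IT. PAD3 was thus highest at 1 week in SW and at 2 weeks in IT, as WRKY40 and WRKY75 were. At 2 weeks the lowest ratio of SW to IT in the list was that of CYP71A12, another camalexin gene (3.26 against 29.3 FPKM, -2.83), followed by PAD3 (-2.61) and the glutathione transferase gene GSTF6 (-2.10).

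Salicylic acid genes, some of which WRKY28 and WRKY70 act on or with, gave 0 of 14 higher and 11 of 14 lower in SW than in IT after 2 weeks (median -2.47). Across all genes 3.92% were higher and 7.19% lower in that comparison. The largest differences among the 14 were PR5 (-4.42), PR2 (-4.24) and PR1 (-3.74), all pathogenesis-related genes. ICS1, the main synthesis gene of salicylic acid, was at 31.9, 8.40 and 8.01 FPKM in SW from warm to 2 weeks and at 53.4, 16.6 and 31.5 FPKM in IT. WRKY70 had the same order of conditions, but the list as a whole did not. PR1, SARD1, CBP60G, EDS5, PBS3 and NIMIN2 were highest in IT at 2 weeks, and PR2 and PR5 in IT at 1 week. WRKY28 went the other way from ICS1 in SW at 1 week, at 13.6 against 1.09 FPKM in the warm. Of 15 early stress-induced genes kept, 0 were higher and 11 lower in SW at 2 weeks (median -1.46), against 3.92% and 7.19% of all genes. The lower ones included NHL10 (-3.80), CML37 (-2.92) and the flagellin response gene FRK1 (-2.45). Of 3 phosphate starvation genes kept 0 were past 2-fold (median 0.53), too few to read against a share of 11.1% of all genes.

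Flower markers summed to 0.440 FPKM in SW against 7.22 FPKM in IT at 2 weeks, and to 0.519 and 0.676 FPKM in SW and 1.20 and 0.963 FPKM in IT in the warm and at 1 week. Of the 5 flower genes 4 were kept, and these reached 1 FPKM in IT at 2 weeks alone. The filter thus kept them through the group where they were high, which favours a lower value in SW at 2 weeks. Their count there, 3 of 4 at 2-fold lower in SW against 7.19% of all genes, is therefore no separate result. None of the 5 was listed at 0. Senescence markers summed to 54.1 FPKM in SW against 333 FPKM in IT at 2 weeks, and to 97.6 and 118 FPKM in SW and 196 and 194 FPKM in IT in the warm and at 1 week. Of the 6 senescence genes 3 were 2-fold lower in SW at 2 weeks and 0 higher. The shares of all genes were 7.19% lower and 3.92% higher, and 6 genes are too few to set against them. The 3 lower genes were SAG13 (17.7 against 291 FPKM, -3.96), SEN1 (-2.12) and NAP (-1.58). ORE1, a senescence regulator, lay the other way at 16.5 against 7.92 FPKM (0.97). Without SAG13 the other 5 summed to 36.4 FPKM in SW against 42.4 FPKM in IT at 2 weeks, so the contrast of the sums rests on that gene. SAG12 was at 0.890 against 1.76 FPKM and was listed at 0 in SW at 1 week. Of 3 trichome markers kept 0 were past 2-fold at 2 weeks, again too few to read against 11.1% of all genes. The part of flowering and senescence in the WRKY differences was not tested.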

How the data were processed

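RNA sequencing libraries of whole aerial parts were made from 18 samples, 3 for each of 6 groups. Per the submitters' processing notes the tools were TopHat 1.4.1, Cufflinks 2.1.1 and Cuffdiff with the build TAIR10. Neither settings, strand nor how libraries were combined is given in the sources used here. Transcript levels are the deposited FPKM values, per the file headers 1 per gene and group in 6 columns. The planned limma test needs values per library, so the planned fallback was used, with both values, their log2 ratio and no p-value.

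Genes with at least 1 FPKM in at least 1 group were kept and values used as deposited, as log2(FPKM + 1). A gene listed at 0 in a compared group got no ratio. The counting of genes past 2-fold was tested on simulated data. The lowest values times gene length, which follow relative depth, differed between groups by 1.29-fold at most. Members, family groups and the 12 gene lists (100 loci) were chosen with earlier results of these data known. The rule for named members took those past 2-fold whose higher group had 5 FPKM or more, up to 8 per direction in each cold-against-warm and ecotype comparison, those with the highest means or smallest ranges, and relatives of WRKY33, WRKY40 and WRKY70. Others were named after their values were seen, to account for every member. The TAIR10.1 annotation, from the Columbia accession, gave names and positions, with 32813 loci matched. Per ratio, 7 alternatives were computed: pseudocounts of 0.1 and 0.25, no filter, a filter of 5 FPKM, and upper-quartile, reference-gene (12 genes) and quantile scaling. Python 3.11.15, pandas 2.3.3 and numpy 2.4.6 were used.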

Additional observations from a re-analysis of the deposited data

Results flagged for a closer look

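These 7 pairs of values drew attention because SW and IT plants differed 2-fold or more in opposite directions under the same contrast. With 1 value per group the difference was not tested. For 2 weeks of cold against warm these were WRKY30, with a SW minus IT difference of -4.51 on the log2 scale (-1.41 in SW and 3.09 in IT), and WRKY53, with -2.72 (-1.44 and 1.28). For 2 weeks against 1 week of cold the differences were -4.03 for WRKY75 (-2.89 in SW and 1.13 in IT), -3.13 for WRKY46 (-1.06 and 2.07), -2.56 for WRKY33 (-1.18 and 1.38), -2.42 for WRKY51 (-1.03 and 1.39) and -2.25 for WRKY8 (-1.16 and 1.09).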

How the results depend on the processing

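No paired analysis was possible because the table held no values per library, and for the same reason no library could be left out. Of the 11 counts of WRKY genes past 2-fold, 8 stayed within 1.5 times their value under all 7 alternatives. The count for SW 2 weeks against warm was 18 with a pseudocount of 0.1 and 17 with 0.25, against 11. That for SW against IT in the warm was 8 with either pseudocount and 7 under reference-gene scaling, against 4. That for the difference of the 1-week responses was 13 with a pseudocount of 0.1, against 8. Smaller pseudocounts stretch the ratios of low genes by construction. The cause of the change under reference-gene scaling was not tested. No single gene past 2-fold turned its sign under any alternative. Of 506 ratios of single genes, reference-gene scaling took 11 inside 2-fold and 12 past it, quantile scaling took 7 inside and upper-quartile scaling took 5 inside and 3 past it. Pseudocounts of 0.1 and 0.25 took 44 and 33 past it. Under reference-gene scaling the counts of SW after 1 week against warm were 8 higher and 7 lower, against 10 and 5. The depth behind each value is unknown, and values near 1 FPKM may rest on few fragments.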
